A study of Arabidopsis thaliana with 39 samples.

Results

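MIOX4 (AT4G26260) encodes a myo-inositol oxygenase and PMT6 (AT4G36670) encodes a polyol and monosaccharide transporter. Both were followed in Arabidopsis root cells sorted with an epidermis marker line, during a time course of iron deficiency. They are 2 of the 806 genes in the deposited expression table and were taken from it by their gene identifiers. They were selected on their RPKM ratios between the media in this same table, so their levels are a description and carry no test. In the RefSeq annotation of the TAIR10.1 assembly both genes lie on chromosome 4. MIOX4 has 11 exon blocks with 1499 exonic bases and PMT6 has 2 exon blocks with 1911 exonic bases. Neither shares exonic bases with another gene on either strand, and no other place in the genome matched either over 125 or more bases at 97% identity, so no near-identical copy was found with which their reads could have been split.

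Myo-inositol oxygenases open the ring of myo-inositol to give glucuronate, which plant cells can turn into UDP-glucuronate, a precursor of cell wall sugars. This route runs beside the main route, in which UDP-glucose dehydrogenases oxidize UDP-glucose to the same product. The PMT family are proton-coupled sugar carriers of the major facilitator type that take up sugar alcohols and monosaccharides. In Arabidopsis, several genes of inositol breakdown and of sugar uptake are known to depend on the sugar and energy status of the tissue.

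Seedlings of the pWER::GFP line in Col-0, which expresses GFP under the WEREWOLF promoter, were grown for 7 d on iron-sufficient medium (+Fe) and moved to fresh +Fe medium or to iron-deficient medium (-Fe). Root cells were protoplasted and GFP-positive cells were sorted at 0 h on +Fe and at 6, 12, 18, 24, 30 and 36 h on each medium, which gave 13 groups of 3 libraries, 39 in all. The +Fe medium held 0.1 mM FeEDTA and the -Fe medium held 300 µM of the iron chelator ferrozine. The labels say that -Fe medium lacked FeEDTA, whereas the Methods describe it in both media. All groups carried the same transgene and had sucrose in the medium. The cells are those in which this 1 promoter drove GFP, so their identity rests on that marker line. Plants were kept in a light and dark cycle, and the clock time of each harvest is not given in the sources used here. The unit is RPKM, reads normalized for the length of the gene and the size of the library, and each group has 1 value for a gene. No spread between libraries could be computed, and no value below has a replicate check or a p-value. In such bulk samples fewer cells of a type and less RNA per cell cannot be told apart.

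MIOX4 was low before transfer and high after transfer to +Fe medium. Its level was 2.71 RPKM at 0 h, the lowest of its 13 values. On +Fe medium it was 245, 145, 91.0, 105, 135 and 25.0 RPKM at 6, 12, 18, 24, 30 and 36 h. On -Fe medium it was 42.0, 16.8, 3.68, 11.8, 2.84 and 3.46 RPKM at the same times. The transcript of this oxygenase was thus highest at 6 h on both media and was lower on -Fe medium at every time point. The highest value was 90.3-fold the lowest. The +Fe and -Fe values overlapped in 1 place, since the -Fe value at 6 h was above the +Fe value at 36 h.

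PMT6 followed a similar course from a higher starting level. The transporter gene was at 8.14 RPKM at 0 h. On +Fe medium it was 235, 179, 83.6, 93.9, 66.8 and 21.5 RPKM from 6 to 36 h. On -Fe medium it was 41.0, 26.1, 20.6, 7.06, 6.61 and 6.16 RPKM. Its lowest value was the -Fe value at 36 h, and the highest was 38.1-fold above it. The -Fe values at 6 and 12 h were above the lowest +Fe value, and the other -Fe values were below all +Fe values after transfer.

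**Figure D1:**
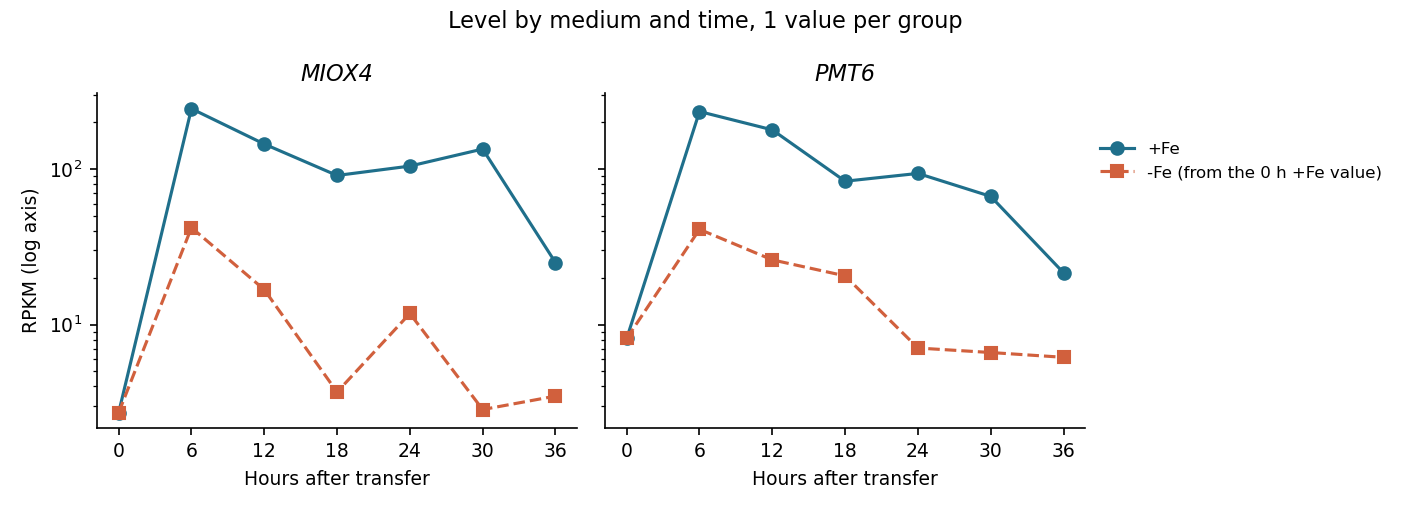
Level of MIOX4 (left) and PMT6 (right) in RPKM on a log axis against hours after transfer, with circles for +Fe, squares for -Fe, 1 value per group and no error bars because there is 1 value per group. Both genes are highest at 6 h on both media, at 245 and 235 RPKM on +Fe and at 42.0 and 41.0 RPKM on -Fe, and the -Fe line lies under the +Fe line from 6 to 36 h.

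The order of the 13 groups was alike for the oxygenase and the transporter. For MIOX4 it ran, from high to low, +Fe at 6, 12, 30, 24 and 18 h, -Fe at 6 h, +Fe at 36 h, -Fe at 12, 24, 18, 36 and 30 h, and 0 h. For PMT6 it ran +Fe at 6, 12, 24, 18 and 30 h, -Fe at 6 and 12 h, +Fe at 36 h, -Fe at 18 h, 0 h, and -Fe at 24, 30 and 36 h. The same 5 +Fe groups held the top 5 places for both genes. With no spread between libraries, it cannot be said which neighbours in these orders differ. The median of the 6 +Fe values after transfer was 120 RPKM for MIOX4 and 88.7 RPKM for PMT6, against 7.73 and 13.8 RPKM on -Fe medium.

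The comparison of media at the same hour asks how the sorted cells differ without available iron. Differences were taken as log2 ratios of RPKM + 1 and were called at 0.75 or more or at -0.75 or less, the size threshold of the Methods. MIOX4 was lower on -Fe medium at 6 of 6 time points, with log2 ratios of -2.51, -3.04, -4.30, -3.05, -5.14 and -2.54. Its RPKM on -Fe medium was 17.2% of the +Fe value at 6 h, 4.04% at 18 h and 2.11% at 30 h. PMT6 was also lower at 6 of 6 time points, with log2 ratios of -2.49, -2.73, -1.97, -3.56, -3.16 and -1.66. Its -Fe level was 7.53% of the +Fe level at 24 h, where it was furthest apart, and 28.6% at 36 h, where it was closest. Of all 806 genes, 23.3, 23.6, 11.4, 30.1, 26.2 and 13.8% were lower on -Fe medium by this threshold at 6 to 36 h, and 6.45% were lower at all 6 time points. The members were picked for these ratios, so their count is not read against that background. With same-hour controls the inositol gene thus had its largest differences at 18 and 30 h, and the transporter gene at 24 and 30 h. This order of hours depends on the processing. With the mean of all +Fe columns as control the largest differences were at 30 and 36 h for MIOX4, with -4.81 and -4.59, and at 36 and 30 h for PMT6, with -3.79 and -3.71. That control gave the smallest differences of both genes at 6 h, -1.33 and -1.24. With a pseudocount of 10 those of PMT6 were largest at 24 and 12 h, with -2.61 and -2.39.

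By the mean of the 6 ratios MIOX4, at -3.43, was in place 2 from the lowest of 806 genes, and PMT6, at -2.59, was in place 5, with a median of 0.06 over all genes. The members were picked for these ratios, so their places restate that choice. At single time points MIOX4 held places 2 to 9 from the lowest and PMT6 held places 3 to 26. PMT6 was in place 26 at 36 h and within places 3 to 10 at the other times. When the log2 values were centred on the median of each column, the ratios of the whole table shifted by 0.20 at 24 h, where 75 genes higher and 243 lower on -Fe medium became 121 and 227. This shift was 0.16 at 30 h and under 0.1 at the other time points, and both genes stayed past the threshold at 6 of 6 time points.

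**Figure D2:**
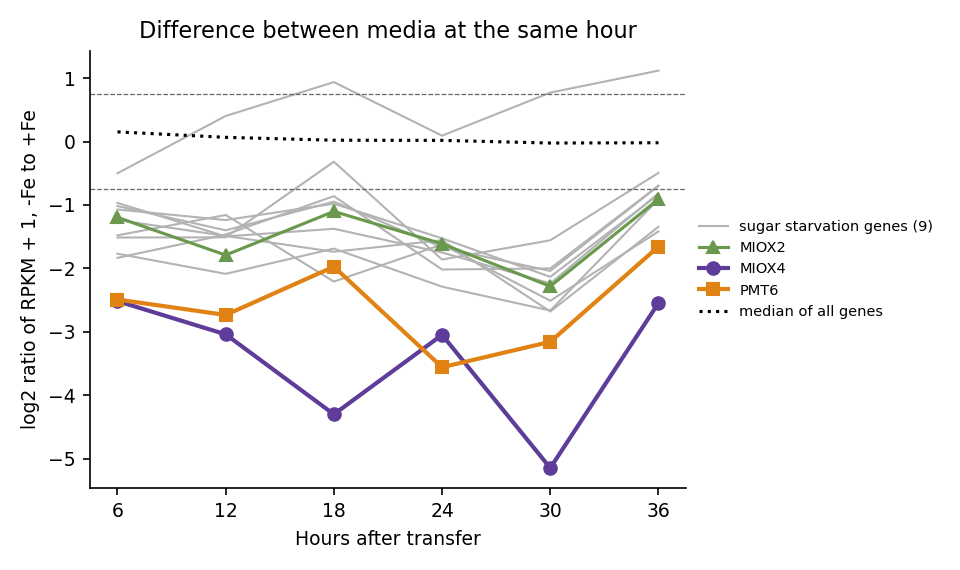
Log2 ratio of RPKM + 1 between -Fe and +Fe medium against hours after transfer, for MIOX4, PMT6, the related oxygenase gene MIOX2, the 9 measured sugar starvation genes and the median of all 806 genes, with dashed lines at 0.75 and -0.75. MIOX4 reaches -5.14 at 30 h and PMT6 -3.56 at 24 h, while the median gene stays near 0 and 8 of the 9 starvation genes lie below 0 at every time point.

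The comparison with 0 h gives the change of the groups on each medium from the shared start. Groups after transfer differ from 0 h in the move to fresh medium, in age and possibly in the hour of day. The parts of these in the change cannot be told apart and were not tested. On +Fe medium MIOX4 was higher than at 0 h at 6 of 6 time points, with log2 ratios of 6.05, 5.30, 4.63, 4.83, 5.19 and 2.81. PMT6 was higher at 6 of 6 time points as well, with 4.69, 4.30, 3.21, 3.38, 2.89 and 1.30. In RPKM, the 6 h value was 90.3-fold the 0 h value for MIOX4 and 28.8-fold for PMT6. Of all genes, 28.2, 26.3, 16.0, 25.2, 17.6 and 5.58% were higher than at 0 h from 6 to 36 h on +Fe medium, and 4.71% were higher at all 6 time points. MIOX4 was in place 2 from the highest of 806 genes by its mean ratio of 4.80 and PMT6 was in place 5 by its mean of 3.29, where the median of all genes was -0.12. At 36 h, when fewer genes of the table were past the threshold, MIOX4 was in place 1 from the highest and PMT6 in place 15. The same +Fe columns stand in the ratios between media for which the members were picked. These places and counts are therefore not independent of that choice. At 30 h centring moved the calls of the table from 142 higher and 125 lower to 167 and 97, with a shift of 0.11, and at 36 h the shift was 0.10.

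On -Fe medium both genes left the 0 h level early and came back to it. MIOX4 was past the threshold at 6, 12 and 24 h, 3 of 6 time points, with log2 ratios to 0 h of 3.53, 2.26, 0.33, 1.78, 0.05 and 0.27. PMT6 was past it at 6, 12 and 18 h, also 3 of 6, with 2.20, 1.57, 1.24, -0.18, -0.26 and -0.35. Of all genes, 15.3, 11.3, 10.9, 4.96, 5.96 and 9.68% were higher than at 0 h on -Fe medium at 6 to 36 h. At 6 h the -Fe level was 15.5-fold the 0 h level for MIOX4 and 5.04-fold for PMT6. The oxygenase gene thus had a later -Fe value past the threshold at 24 h, where the transporter gene was at 7.06 RPKM, under its 0 h value. From 24 to 36 h the ratios of PMT6 lay between -0.18 and -0.35 and were not called.

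The comparison of -Fe medium with 0 h was the one most moved by scaling. Centring shifted the ratios of the whole table by 0.27 at both 24 and 30 h, and by 0.18 at 36 h. The calls went from 40 higher and 98 lower to 57 and 50 at 24 h. They went from 48 and 143 to 86 and 79 at 30 h, and from 78 and 102 to 96 and 77 at 36 h. With centring the uncalled ratio of PMT6 was 0.09 at 24 h and 0.0045 at 30 h, on the other side of 0, so its late direction against 0 h is not settled by these values. The 3 comparisons share columns, since the 0 h column stands in 2 of them and each medium's columns in 2, and their ratios are therefore given side by side only.

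The profiles of the oxygenase and transporter genes were close to each other over the 13 groups. Pearson's r of log2(RPKM + 1) was 0.935 and Spearman's rho was 0.929, as a description over points that share the scale of their column. Within the 7 +Fe groups with 0 h, r was 0.956 and rho was 0.893. Within the 6 -Fe groups r was 0.719 and rho was 0.886, so the lower value on -Fe medium was seen with r and not with rho. PMT6 was in place 22 among all genes by its r with MIOX4, and MIOX4 was in place 80 by its r with PMT6. An r of at least 0.9 was reached by 54 genes with MIOX4 and by 120 genes with PMT6, whereas the median gene had -0.24 and -0.20. A close match to either gene was thus common in this table and is not particular to the pair.

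The RPKM of both genes, a value per length, was nearly equal in most +Fe groups and parted mainly on -Fe medium. The log2 difference of MIOX4 less PMT6 was 0.06, -0.30, 0.12, 0.16, 1.00 and 0.21 on +Fe medium from 6 to 36 h. On -Fe medium it was 0.04, -0.61, -2.20, 0.66, -0.99 and -0.68, and at 0 h it was -1.30. MIOX4 was at 0.179 of the PMT6 level at 18 h on -Fe medium, and at 24 h on the same medium it was 1.67-fold above PMT6. At 30 h on +Fe medium MIOX4 was 2.02-fold above PMT6. The ups and downs of MIOX4 on -Fe medium rest on values of 2.84 to 42.0 RPKM whose read numbers are not known here.

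**Figure D3:**
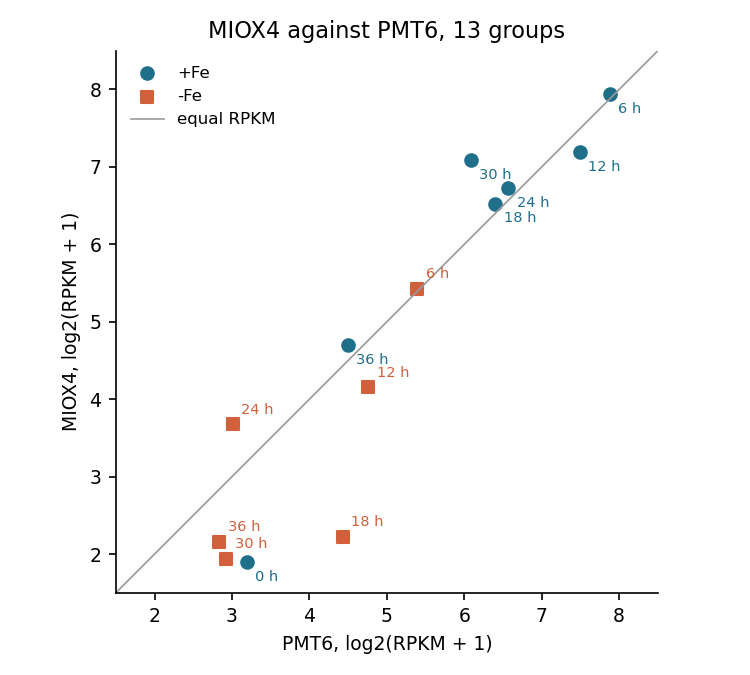
Log2(RPKM + 1) of MIOX4 against that of PMT6, 1 point per group labelled by hour, with circles for +Fe, squares for -Fe and a line of equal RPKM. The +Fe points after transfer lie near the line apart from 30 h, and the -Fe point at 18 h lies furthest below it, at 3.68 RPKM of MIOX4 and 20.6 RPKM of PMT6.

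The genes most like each member were named by Pearson's r of log2(RPKM + 1) over the 13 columns, 5 for each. For MIOX4 they were PRODH1 (AT3G30775, proline dehydrogenase, r = 0.975), AT1G15330 (a protein with CBS domains, 0.974), BAM9 (AT5G18670, a beta-amylase family protein, 0.969), AGT2 (AT4G39660, an aminotransferase, 0.963) and PCK2 (AT5G65690, phosphoenolpyruvate carboxykinase, 0.963). PRODH1 was far more abundant, with 6804 RPKM before transfer and, 6 h later, 27892 RPKM on +Fe and 14903 RPKM on -Fe medium. These 5 genes resembled MIOX4 in shape with smaller differences between media. Their log2 ratios of -Fe to +Fe ran from -1.74 to -0.86 for PRODH1, -2.49 to -1.05 for AT1G15330, -2.55 to -0.91 for BAM9, -1.93 to -0.76 for AGT2 and -2.52 to -1.10 for PCK2. BAM9 shares 33 bases with AT5G18680 on the opposite strand, and the use of strand in counting is not given in the sources used here.

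For PMT6 the 5 nearest genes were AGT (AT2G13360, alanine:glyoxylate aminotransferase, r = 0.990), AT5G57655 (xylose isomerase family, 0.990), AT5G24490 (0.989), UKL3 (AT1G55810, uridine kinase family, 0.988) and AGT2 (0.987). AGT came near the size of PMT6 itself, with 4.83 RPKM before transfer and, 6 h later, 152 RPKM on +Fe and 22.9 RPKM on -Fe medium, and had log2 ratios between media of -3.92 to -1.64. The other nearest genes were less far apart between media, from -1.21 to -0.41 for AT5G57655 and from -1.91 to -0.59 for UKL3. AT5G24490, from -2.42 to -0.77, overlaps AT5G24500 of the other strand by 159 bases. AGT2 stood in both sets of 5. The sets were kept whole with centred values and with a pseudocount of 0.1, and 4 of 5 genes were kept in each with a pseudocount of 10.

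Of the 4 myo-inositol oxygenase genes, MIOX4 and MIOX2 (AT2G19800) are in the table. MIOX2, the closest relative measured, was the more abundant of the pair, at 506 RPKM at 0 h. On +Fe medium it was at 4373, 3211, 1635, 2125, 1928 and 913 RPKM from 6 to 36 h. On -Fe medium it was at 1910, 928, 762, 695, 396 and 486 RPKM. Its +Fe and -Fe values overlapped, since the -Fe values at 6 and 12 h were above the lowest +Fe value. MIOX2 was lower on -Fe medium at 6 of 6 time points, with log2 ratios of -1.20, -1.79, -1.10, -1.61, -2.28 and -0.91, each smaller in size than that of MIOX4 at the same hour. Its r was 0.96 with MIOX4 and 0.97 with PMT6. On -Fe medium it too was past the threshold above 0 h at 6 and 12 h, by 1.92 and 0.88.

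Few other genes of inositol metabolism are in the table used here, which holds genes listed as differentially expressed and is not a random sample. It holds fewer genes than the paper counts as differentially expressed in the epidermis. The absence of a gene from it does not show that the gene was unmeasured or unchanged. None of the 6 listed inositol synthesis genes and none of the 4 inositol transporter genes was analysed here. Of 10 listed genes of the glucuronate and UDP-glucuronate route, the table holds UGD3 (AT5G15490), a UDP-glucose dehydrogenase of the main route, at 2217 to 4541 RPKM. Its log2 ratios between media lay between 0.08 and 0.45 and none was past the threshold, unlike those of MIOX4 and MIOX2. On +Fe medium UGD3 was lower than at 0 h by the threshold at 6 and 12 h, with -0.77 and -0.81. Of the 806 genes, 189 and 154 were lower at these times. The r of UGD3 was -0.78 with MIOX4 and -0.84 with PMT6. PMT6 was the 1 gene of 6 listed polyol transporters.

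Of 16 other listed sugar carriers, 3 were in the table. STP4 (AT3G19930), a monosaccharide importer of the plasma membrane, was lower on -Fe medium at 4 of 6 time points, with log2 ratios of -1.42 to -0.57. Its level was 779 RPKM before transfer and, at 6 h, 3577 RPKM on +Fe and 1935 RPKM on -Fe medium, and it had r = 0.97 with PMT6. SWEET16, a sugar facilitator of the vacuole, was lower at 5 of 6 time points, with ratios of -1.33 to -0.33, and at 4 of 6 after centring, when its 6 h ratio was -0.72. ESL1, a vacuolar carrier of the ERD6-like family, was not past the threshold, with -0.09 to 0.58. Of 10 listed genes of galactinol, raffinose and sorbitol metabolism, the table holds DIN10 and SIP1, both of the raffinose synthase family. SIP1 was higher on -Fe medium at 3 of 6 time points, with ratios of -0.24 to 2.50 at levels of 0.85 to 16.7 RPKM, and at 4 of 6 after centring. Of all genes, 9.18, 10.8, 6.82, 9.31, 11.3 and 9.8% were higher on -Fe medium at 6 to 36 h, and 2.36% were higher at all 6 time points. The carriers STP4 and SWEET16 thus shared the direction of PMT6 with smaller ratios, and ESL1 did not.

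Sugar starvation genes are those that are known to be raised when plant cells run short of sugar, and 9 of 23 on this list were in the table. The list was drawn up with earlier results of these data known and is not independent of them. On -Fe medium 8, 8, 7, 8, 8 and 5 of the 9 were lower than on +Fe medium at 6 to 36 h, with medians of -1.24, -1.47, -0.98, -1.67, -2.13 and -0.81 against medians of 0.15, 0.07, 0.02, 0.02, -0.02 and -0.02 over all genes. The share of all genes lower at these times is the one given above, 11.4 to 30.1%. With centring the lower counts were 8, 8, 7, 8, 8 and 4. Compared with 0 h, 9, 8, 7, 8, 8 and 4 of the 9 were higher on +Fe medium, where 28.2, 26.3, 16.0, 25.2, 17.6 and 5.58% of all genes were. With centring these counts were 8, 8, 8, 8, 8 and 6. On -Fe medium 7, 3, 0, 0, 0 and 0 of the 9 were higher than at 0 h, where 15.3, 11.3, 10.9, 4.96, 5.96 and 9.68% of all genes were, and with centring 7, 4, 0, 0, 0 and 1 were. At 30 h 3 of the 9 were lower than at 0 h on -Fe medium, where 17.7% of all genes were, and 0 of the 9 were after centring. The time course of the list thus resembled that of MIOX4 and PMT6, with a high level at 6 h on both media and a return towards the start on -Fe medium.

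The members of the list that moved with the pair belong to several pathways. DIN3 and DIN4, subunits of the branched-chain keto acid dehydrogenase, had ratios between media of -2.66 to -0.91 and -1.86 to -0.32. MCCA, a subunit of methylcrotonyl-CoA carboxylase in leucine breakdown, had -2.02 to -0.69 and shares 341 bases with other genes on the opposite strand. DIN6, asparagine synthetase, was lower at 6 of 6 time points, with -2.51 to -1.16. DRM1 and DRM2, dormancy-associated genes, and SEN5 were also lower at 6 of 6 time points, with -2.13 to -0.84, -2.68 to -1.24 and -2.24 to -0.81. After centring SEN5 was lower at 5 of 6, with -0.74 at 36 h. DIN10 was lower at 5 of 6, with -2.04 to -0.70. GDH1, a glutamate dehydrogenase, went the other way, being higher on -Fe medium at 3 of 6 time points with -0.50 to 1.12, and it shares 166 bases with AT5G18180 on the opposite strand. Of these 8 other genes, r lay between 0.86 and 0.95 with MIOX4 and between 0.90 and 0.98 with PMT6, while GDH1 had -0.26 and -0.09. At each of the 6 time points no measured member of this list was as far apart between media as MIOX4. MIOX4 was picked for its ratios between media, so this order follows from that choice. At 18 h DIN6, at -2.21, was further apart than PMT6, at -1.97.

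**Figure D4:**
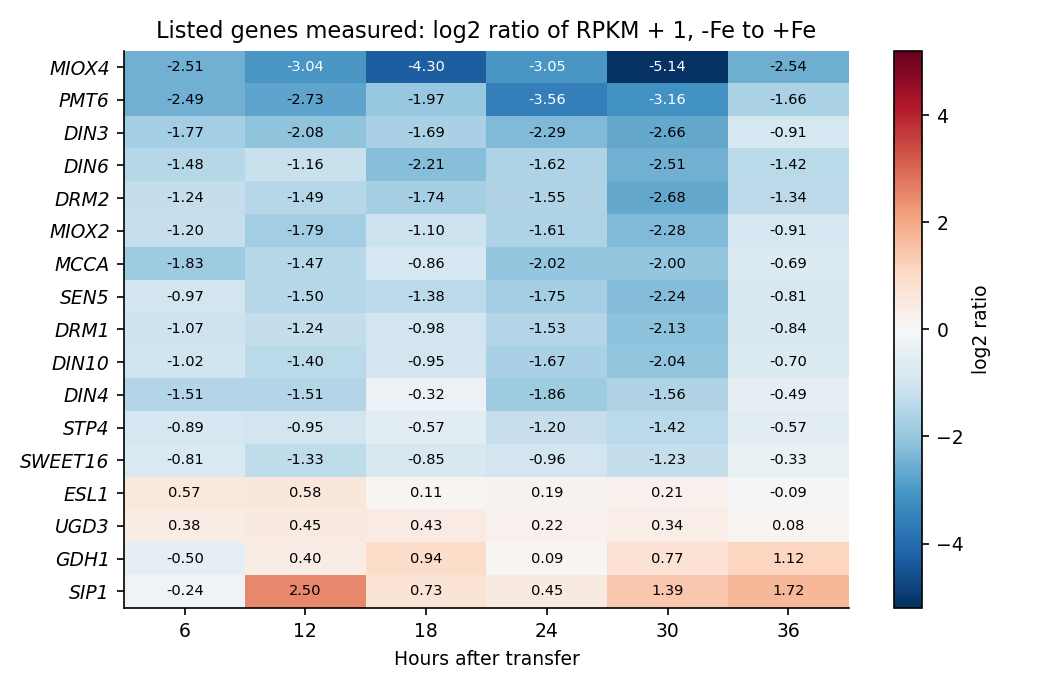
Log2 ratio of RPKM + 1 between -Fe and +Fe medium for MIOX4, PMT6 and the measured genes of the inositol, sugar carrier, raffinose and sugar starvation lists, with 1 row per gene and 1 column per hour after transfer. Blue cells are lower and red cells higher on -Fe medium, and the darkest cell is MIOX4 at 30 h, at -5.14.

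Of the 9 epidermis markers listed, the table holds GL2, a regulator of non-hair cells of the epidermis, and of 16 markers of other root cells it holds BRN1, a root cap gene. None of the 15 listed clock genes was analysed here. GL2 was at 189 RPKM at 0 h, 154 to 410 RPKM on +Fe and 98.1 to 188 RPKM on -Fe medium, and was lower on -Fe medium at 4 of 6 time points, with ratios of -1.64 to -0.10. It had r = 0.80 with MIOX4 and 0.90 with PMT6, and it shares exonic bases with other genes on both strands. GL2 thus shared the lower -Fe values of the pair at these times over a much narrower range than the 90.3-fold of MIOX4. BRN1 was at 1601 RPKM at 0 h, 1384 to 1972 RPKM on +Fe and 1470 to 2057 RPKM on -Fe medium, with ratios of -0.08 to 0.14. RNA of this root cap gene was thus present in every group, at a higher RPKM than that of GL2. The share of root cap cells among the sorted cells was not tested. The part of cell composition in the levels of MIOX4 and PMT6 was not tested either, and 2 markers do not settle the identity of the sorted cells.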

How the data were processed

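RNA was measured by sequencing in 39 libraries of root cells sorted with an epidermis marker line, 13 groups of 3. Per the Methods, the authors used fastQC and fastq-mcf to assess and trim the reads, tophat2 to map them to TAIR10, RSubread to obtain RPKM and edgeR to call genes. The library kit differs between the labels (directional, poly(A) selected) and the Methods (low-input amplification). The deposited table holds RPKM of 806 genes in 13 columns, 1 for each group, and all columns were used. It holds genes listed as differentially expressed, not all genes of the genome, and fewer than the paper counts as differentially expressed in the epidermis. The read totals, the way in which 3 libraries became 1 column, and the use of strand are not given in the sources used here, so the depth is unknown and no interval, spread or test was computed. Of 10478 values, 8 were 0, and column medians lay between 185 and 230 RPKM.

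Log2 ratios of RPKM + 1 were computed in Python 3.11.15 with pandas 2.3.3 and numpy 2.4.6 and called at 0.75 in size, with no filter on low values. The pseudocount makes ratios of low values smaller. Correlations were computed with numpy and pandas, with scipy 1.17.1 installed, and figures with matplotlib 3.10.9. All 806 identifiers matched RefSeq genes of TAIR10.1, which gave exon structure and overlaps, and blastn 2.17.0 gave near-identical stretches. The members and gene lists were chosen with earlier results of these data known. Named genes are the 2 members, the 5 genes most correlated with each and every measured gene of 11 lists, 19 of 117 different genes. The scripts were tested on simulated data. Alternatives were pseudocounts of 0.1 and 10, centring on column medians, a threshold of 1, a mean of at least 1 RPKM, the mean of all +Fe columns as control, and Spearman's rho, RPKM or fewer columns for the correlation. A count or share was taken as moved beyond 1.5 times, and a correlation beyond a change of 0.1.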

Additional observations from a re-analysis of the deposited data

How the results depend on the processing

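The number of time points past the threshold did not move for MIOX4 or PMT6 in any of the 3 comparisons under the pseudocounts, the centring, the threshold of 1 or the low-value filter, which removed 0 genes. With the mean of all +Fe columns as control, which was run for -Fe against +Fe medium, both genes also remained lower at 6 of 6 time points. The size of single ratios depended on the control and on the pseudocount. With the mean of all +Fe columns as control the -Fe to +Fe ratio of MIOX4 was -1.33 at 6 h and -4.59 at 36 h, against -2.51 and -2.54, and that of PMT6 was -1.24 and -3.79, against -2.49 and -1.66. For MIOX4 the +Fe to 0 h ratio at 6 h was 6.44 with a pseudocount of 0.1 and 4.33 with 10, against 6.05, and the -Fe to +Fe ratio at 30 h was -5.52 and -3.49, against -5.14. For PMT6 the -Fe to +Fe ratio at 24 h was -3.71 and -2.61, against -3.56. The share of all genes past the threshold between -Fe and 0 h, as a mean over the 6 time points, was 20.7% and became 13.4% with a threshold of 1. The correlation of MIOX4 with PMT6, as Pearson's r, was 0.935 over 13 columns and 0.719 in the -Fe columns alone, where Spearman's rho was 0.886. The correlation was 0.916 to 0.956 under the other alternatives. No paired analysis was possible because the table gives 1 value per group with no library values, and leaving out single libraries was not run for the same reason. Read depth limits the low values most, those of MIOX4 at 0 h and at 18, 30 and 36 h on -Fe medium, which lie between 2.71 and 3.68 RPKM.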

Other observations

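The genes running most opposite to the oxygenase and the transporter were looked up after their values were seen. NIA1 (AT1G77760), a nitrate reductase, had r = -0.96 with MIOX4. Its level was 145 RPKM before transfer. On +Fe medium it was 35.2 RPKM at 6 h and 57.7 RPKM at 36 h, and on -Fe medium it was 74.1 and 134 RPKM. Its log2 ratios of -Fe to +Fe were 1.05 to 1.54, past the threshold at 6 of 6 time points. NIA1 was thus low in the groups where MIOX4 was high, with a smaller range.

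YUC8 (AT4G28720), which encodes a flavin monooxygenase of auxin synthesis, had r = -0.92 with MIOX4 and -0.97 with PMT6. Its level was 906 RPKM before transfer and, at 6 h, 362 RPKM on +Fe and 734 RPKM on -Fe medium, and its ratios between media were 0.59 to 1.09. XTH27 (AT2G01850), a xyloglucan endotransglucosylase and hydrolase of the cell wall, had r = -0.97 with PMT6 with 108 RPKM before transfer and 32.9 RPKM at 6 h on +Fe medium. CYP78A9, a cytochrome P450, had r = -0.92 with MIOX4 and -0.95 with PMT6. These correlations are over 13 points that share the scale of their column, and the genes were the extremes of 806.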
